A study of Homo sapiens with 9 samples.

Results

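CCN1, CCN2, TAGLN, ACTA2, CNN1, TPM1, MYL9, ANKRD1 and THBS1 are 9 genes that are widely used as readouts of SRF, with its MRTF cofactors, and of YAP, with its TEAD partners. The array carried 13 probes for transcripts of these genes, identified by their RefSeq accessions under the current symbols, where CCN1 was formerly CYR61 and CCN2 was CTGF. After the filter on dim probes 8 of the 9 genes were tested, among 21832 genes and other features in all, and ANKRD1 was measured but fell below the filter. The set was chosen by the measured levels of TAGLN and CCN1, which were higher at the higher dose on these arrays, so the values of both are given as a description, without a test. For the other members the fit by limma across all genes supplied p-values with Benjamini-Hochberg (BH) adjustment.

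The A2780 cell line was derived from a human ovarian carcinoma. DIG-MSK is an analogue of mithramycin A, an antibiotic that binds C/G-rich DNA in the minor groove. Cultures without DIG-MSK, labelled 0 nM and called untreated here, were compared with cultures that received DIG-MSK for 24 h at a lower dose, 8 nM, or at a higher one, 80 nM, and 3 independent cultures per group were each hybridized to an array of their own. No carrier or vehicle for the untreated cultures was given in the sources used here.

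SRF binds CArG boxes in the promoters of genes for actin, its binding proteins and the contractile apparatus. Its cofactors MRTFA and MRTFB are held by monomeric actin and move to the nucleus when actin filaments assemble. YAP and its paralog TAZ, encoded by WWTR1, bind TEAD factors on DNA and are held back by the LATS kinases of the Hippo pathway. Both routes respond to cell shape, adhesion and tension. CCN1, CCN2, ANKRD1 and THBS1 are usually listed with YAP, and TAGLN, ACTA2, CNN1, TPM1 and MYL9 with SRF, although several of them answer to both.

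Promoter sequences of RefSeq on GRCh38.p14, which run from 250 bases before to 50 bases after each annotated start, were found for 6 of the 9 genes, namely CCN2, ACTA2, CNN1, TPM1, ANKRD1 and THBS1, with 2 windows for ACTA2. They were searched for the letters of the TEAD element (GGAATG or, on the other strand, CATTCC), of the GC box that Sp1 family factors recognise (GGGCGG or CCGCCC) and of the CArG box. The CArG box was taken as CC, 6 bases that are A or T, and GG, and matches with 1 of the 6 inner bases changed were recorded apart. Because such a CArG match reads as a CArG match on the other strand too, it was counted once. The windows of CCN2, ANKRD1 and THBS1 are shown because they hold TEAD elements, and the downstream ACTA2 window because it is the only member window with CArG-like letters. Capitals mark the matches, and each sequence runs 5′ to 3′ on the strand of its gene.
CCN2 (chr6:131951323-131951622, minus strand): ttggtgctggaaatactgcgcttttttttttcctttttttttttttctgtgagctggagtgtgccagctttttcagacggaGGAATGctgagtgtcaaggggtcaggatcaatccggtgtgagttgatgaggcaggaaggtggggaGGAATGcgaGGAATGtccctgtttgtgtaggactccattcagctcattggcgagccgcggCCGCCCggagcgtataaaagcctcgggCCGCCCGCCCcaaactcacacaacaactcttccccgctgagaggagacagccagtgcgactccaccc
ANKRD1 (chr10:90921038-90921337, minus strand): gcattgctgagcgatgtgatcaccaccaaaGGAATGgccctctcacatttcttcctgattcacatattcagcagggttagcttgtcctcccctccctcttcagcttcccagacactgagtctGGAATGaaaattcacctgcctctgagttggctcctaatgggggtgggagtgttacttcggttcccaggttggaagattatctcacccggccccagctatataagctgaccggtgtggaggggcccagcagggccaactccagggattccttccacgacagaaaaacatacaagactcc
THBS1 (chr15:39580829-39581128, plus strand): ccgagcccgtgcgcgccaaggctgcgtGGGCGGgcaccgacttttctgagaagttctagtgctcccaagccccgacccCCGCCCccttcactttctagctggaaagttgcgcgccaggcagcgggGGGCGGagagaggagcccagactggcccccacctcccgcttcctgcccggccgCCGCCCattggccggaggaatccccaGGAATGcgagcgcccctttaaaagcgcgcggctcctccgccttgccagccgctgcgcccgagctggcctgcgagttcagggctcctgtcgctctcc
ACTA2, window 2 (chr10:88952724-88953023, minus strand): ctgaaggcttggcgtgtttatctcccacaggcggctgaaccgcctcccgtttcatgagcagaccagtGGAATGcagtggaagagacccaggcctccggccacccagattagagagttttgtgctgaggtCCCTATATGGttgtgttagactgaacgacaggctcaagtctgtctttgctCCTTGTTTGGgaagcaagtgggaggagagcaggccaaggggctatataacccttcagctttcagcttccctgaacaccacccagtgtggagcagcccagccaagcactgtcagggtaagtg

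The CCN2 window held 3 TEAD elements, which began 169, 104 and 95 bases before the start. A TEAD element was present in 14% of all 35116 windows, and 3 or more were present in 0.128% of them. The ANKRD1 window held 2 TEAD elements, the THBS1 window held 1, and the downstream ACTA2 window held 1. CCN2 also held 3 GC boxes, of which those that began 17 and 13 bases before the start overlapped. THBS1 held 4 GC boxes, the upstream ACTA2 window 2, TPM1 2 that overlapped, CNN1 1 and ANKRD1 none, whereas 45% of all windows held at least 1. No member window held an exact CArG box, which 1.29% of all windows did. The downstream ACTA2 window held CCCTATATGG and CCTTGTTTGG, each with 1 inner base changed, 121 and 71 bases before the start, and such matches were present in 6.94% of all windows. These matches describe the letters in the windows and say nothing of binding.

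**Figure D1:**
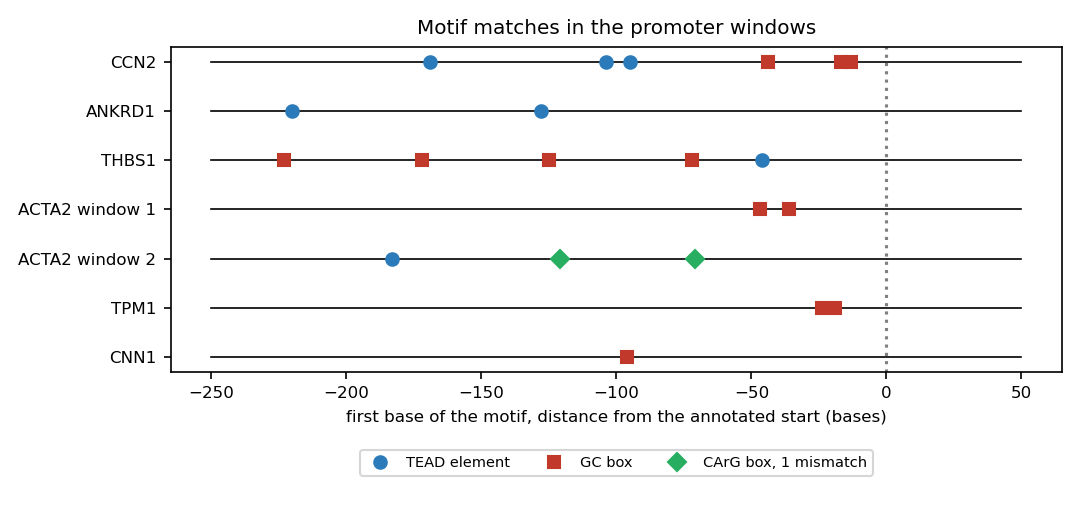
Motif matches in the 7 promoter windows of 6 member genes, placed by the distance of their first base from the annotated start (in bases). Circles are TEAD elements, squares GC boxes and diamonds CArG boxes with 1 mismatch, and the 3 circles of CCN2 lie between 169 and 95 bases before the start.

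Of the 6 genes tested besides CCN1 and TAGLN, CCN2 and ACTA2 were called up-regulated at 8 nM and none down-regulated (0 were lower by limma's unadjusted p alone), while at 80 nM 4, ACTA2, TPM1, MYL9 and THBS1, were called up-regulated and 1, CCN2, down-regulated. CCN1 and TAGLN lay above the fold limit at both doses, which is given as a description. A level is the log2 of a probe's background-corrected intensity minus the 75th percentile of its array. A gene was called where its fold was at least 1.5 or at most 0.67 and limma's p before adjustment was below 0.05. Against untreated cells, 4.23% of all tested genes were called up and 2.84% down at 8 nM, and 18.9% were called up and 16.1% down at 80 nM. The counts of members are a description, since the set was chosen with these contrasts known. The median difference of the 8 genes includes CCN1 and TAGLN, whose values chose the set, so it is a description too. It was 0.541 at 8 nM and 1.67 at 80 nM on the log2 scale, against -0.0583 and 0.0818 over all genes tested. Both medians of the 8 genes were the same with CCN2 at the bound described below. The untreated and 8 nM arrays shared slide 1 and a scan, whereas the higher dose was hybridized on slide 2 and scanned apart from them, so the response to 80 nM and the change of slide cannot be told apart. Comparison of 8 nM with untreated cells was within slide 1. A lower level per cell and fewer expressing cells cannot be told apart in these bulk RNA samples.

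**Figure D2:**
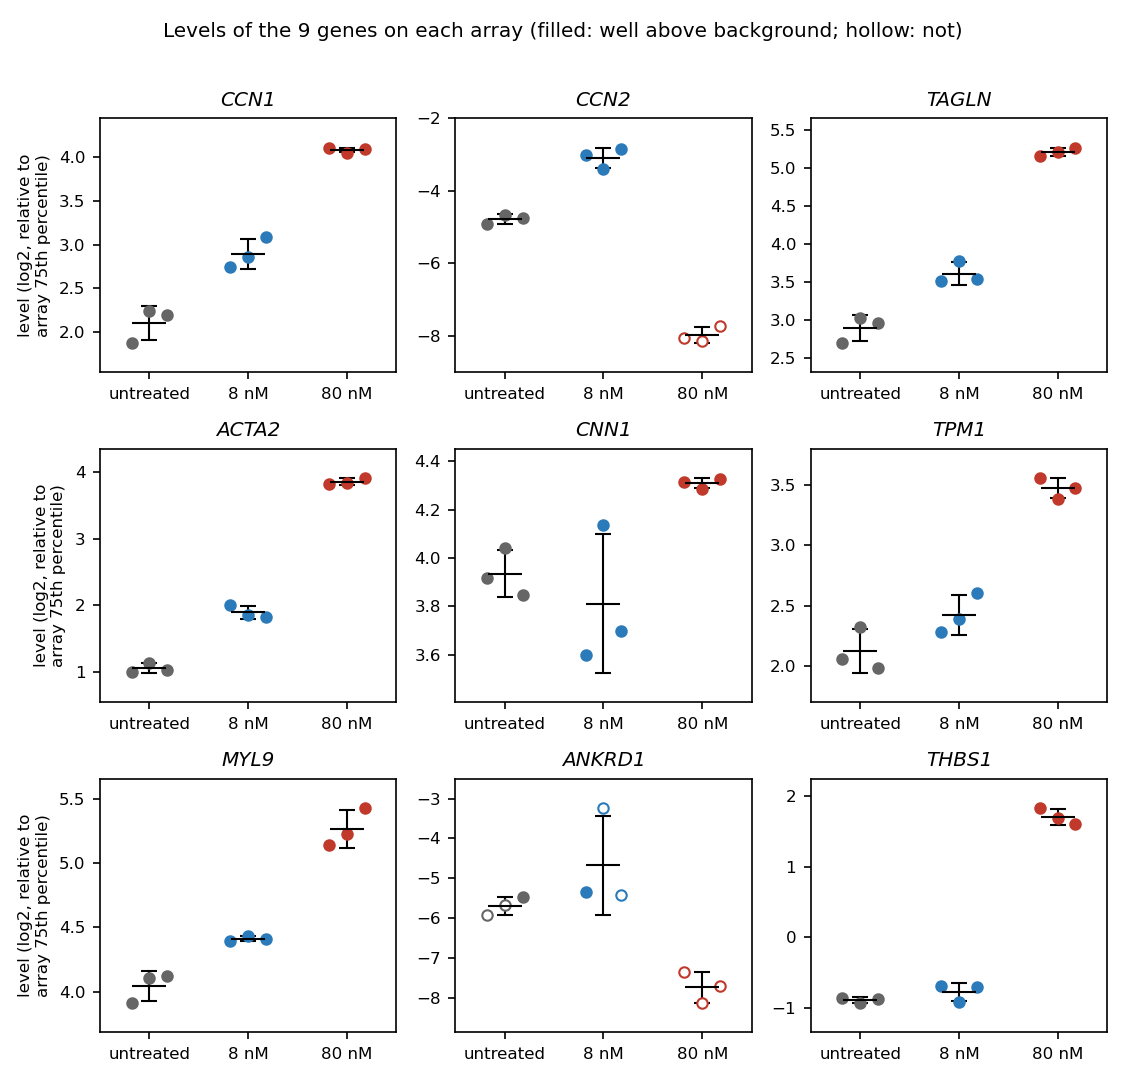
Level of each of the 9 genes (log2, relative to the 75th percentile of the array) on the 3 arrays of each group, with the mean and SD as bars. Filled points were well above background and hollow points were not, as for all 80 nM arrays of CCN2, and the vertical scale differs between panels.

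The first group of members encodes secreted matricellular proteins. CCN1, a protein of the extracellular matrix that binds integrins, is one of the genes whose values led to the set. Its level was 1.87, 2.23 and 2.19 on the untreated arrays, 2.74, 2.86 and 3.08 at 8 nM, and 4.10, 4.06 and 4.10 at 80 nM. Each dose lay wholly above the one before it. The log2 difference from untreated was 0.80 (standard error 0.12) at 8 nM, a 1.74-fold higher level, and 1.99 (0.12) at 80 nM, a 3.97-fold higher level. With arrays scaled to the spike-in probes, the 80 nM difference was 1.70.

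CCN2, the closest relative of CCN1 among the members and a regulator of matrix production, was measured by 1 probe and did not follow CCN1 at the higher dose. Its level was -4.93, -4.66 and -4.76 on the untreated arrays, -3.02, -3.40 and -2.85 at 8 nM, and -8.06, -8.14 and -7.74 at 80 nM. The 3 arrays at 8 nM lay above all untreated arrays, and the 3 at 80 nM below them. Expression rose at 8 nM by 1.69 on the log2 scale (standard error 0.16, limma BH-adjusted p = 0.00058), or 3.23-fold. Because the probe was not well above background on any 80 nM array, only a bound can be given there. CCN2 was at least 2.16-fold lower at 80 nM than in untreated cells and at least 6.99-fold lower than at 8 nM. The limma BH-adjusted p-values, 1.5e-06 and 1.6e-07, belong to the fit on the 80 nM signals as measured and not to these bounds. CCN2 passed the filter on dim probes only through the untreated and 8 nM arrays, where it was higher. Its calls and p-values at 80 nM thus rest partly on that filter. Both bounds refer to the scale of the processed intensity. Each bound sets the mean of the brighter group against the lowest signal well above background, or the probe's own signal where higher, on each 80 nM array.

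The size of the CCN2 differences depended on the treatment of background, as the probe was dim throughout. Processed intensities ran from 27.1 to 43 on the untreated arrays, from 78.4 to 162.2 at 8 nM and from 3.13 to 4.28 at 80 nM. When the background was corrected by normexp instead, the differences from untreated were 0.82 at 8 nM and -0.61 at 80 nM, and with the authors' own log2 values 1.06 and -1.14. Between 8 nM and 80 nM they were -1.43 with normexp and -2.20 with the authors' values. Both of the latter, and the normexp difference from untreated, were smaller than the bounds on processed intensity. The signs were the same under all of these.

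THBS1, or thrombospondin 1, a matrix glycoprotein that activates latent TGF-beta, was measured by a brighter and a dimmer probe. The brighter probe was at -0.86, -0.93 and -0.87 on the untreated arrays, at -0.68, -0.91 and -0.71 at 8 nM, and at 1.83, 1.69 and 1.60 at 80 nM. Its 8 nM and untreated arrays overlapped, and its 80 nM arrays lay far above both. At 80 nM expression rose by 2.59 (standard error 0.09, limma BH-adjusted p = 2e-07), or 6.02-fold. At 8 nM the difference was 0.12 (standard error 0.09, adjusted p = 0.4). The dimmer probe gave 0.26 at 8 nM and 1.69 at 80 nM, or 3.24-fold, so the probes differed in size and not in direction.

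Of the structural members, TAGLN encodes transgelin, an actin-binding protein of smooth muscle and of spread fibroblasts, and its values were the other ground for the set. The brighter of its 2 probes was at 2.70, 3.02 and 2.96 on the untreated arrays, at 3.51, 3.78 and 3.53 at 8 nM, and at 5.16, 5.21 and 5.26 at 80 nM. The groups did not overlap. The log2 difference was 0.72 (standard error 0.11) at 8 nM and 2.32 (0.11) at 80 nM, or 1.64-fold and 4.99-fold. The other probe gave 0.85 and 2.39, so both probes moved alike. With arrays scaled to the spike-in probes, the brighter probe was higher by 2.04 at 80 nM.

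ACTA2, the smooth muscle form of actin, showed the largest rise of any member at 80 nM. Levels were 1.00, 1.14 and 1.03 on the untreated arrays, 2.00, 1.85 and 1.82 at 8 nM, and 3.82, 3.83 and 3.91 at 80 nM. All arrays of a dose lay above all arrays of the dose below. Expression rose by 0.83 (standard error 0.08, limma BH-adjusted p = 0.00049) at 8 nM, or 1.78-fold, and by 2.80 (0.08, adjusted p = 6.1e-08) at 80 nM, or 6.96-fold. The 80 nM arrays were also 1.96 above the 8 nM arrays (adjusted p = 3.6e-07). The actin genes are near-identical in their coding parts, and the sequence of the probe was not used here, so signal from other actins cannot be separated from that of ACTA2. With spike-in scaling the adjusted p at 8 nM was 0.089.

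MYL9 encodes the regulatory light chain of smooth muscle and nonmuscle myosin II. Its level was 3.91, 4.11 and 4.12 on the untreated arrays, 4.39, 4.43 and 4.41 at 8 nM, and 5.14, 5.23 and 5.43 at 80 nM, with no overlap between groups. At 8 nM the difference of 0.37 (standard error 0.09, limma BH-adjusted p = 0.039), or 1.29-fold, was under the fold limit. At 80 nM expression rose by 1.22 (0.09, adjusted p = 1.6e-05), or 2.33-fold. The rise from 8 nM to 80 nM, 0.86 (adjusted p = 0.00013), lost its call with spike-in scaling, where it was 0.50 (adjusted p = 0.13).

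TPM1, tropomyosin 1, which wraps along actin filaments and has many spliced forms, had 3 probes listed under 3 transcript accessions. The probe with the highest mean was at 2.06, 2.33 and 1.98 on the untreated arrays, at 2.28, 2.39 and 2.60 at 8 nM, and at 3.56, 3.39 and 3.48 at 80 nM. Arrays at 8 nM overlapped the untreated ones, and all arrays at 80 nM lay above both. The difference was 0.30 (standard error 0.12, limma BH-adjusted p = 0.13) at 8 nM, and expression rose by 1.35 (0.12, adjusted p = 3.1e-05) at 80 nM, or 2.55-fold. The other probes gave 0.87 and 0.73 at 80 nM, or 1.83-fold and 1.66-fold, and 0.12 and 0.08 at 8 nM. The 80 nM difference was thus larger on the first probe, and whether this follows the spliced forms was not tested.

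CNN1, or calponin 1, which inhibits the myosin ATPase in smooth muscle, was called at neither dose. Its level was 3.92, 4.04 and 3.85 on the untreated arrays, 3.60, 4.14 and 3.70 at 8 nM, and 4.32, 4.29 and 4.33 at 80 nM. Replicate 2 at 8 nM stood above every untreated array while the other 8 nM arrays stood below them. The difference was -0.12 (standard error 0.13, limma BH-adjusted p = 0.56) at 8 nM and 0.37 (0.13, adjusted p = 0.04) at 80 nM, or 1.30-fold, under the fold limit although the 80 nM arrays lay above all untreated ones. With spike-in scaling the latter was 0.09 (adjusted p = 0.78). Between 8 nM and 80 nM the difference was 0.50 (adjusted p = 0.013), and it reached the call only without replicate 2 at 8 nM, at 0.66 (adjusted p = 0.00033).

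ANKRD1, an ankyrin repeat protein of muscle nuclei and sarcomeres and a common YAP readout, was near or below background. Its probe was well above background on 1 untreated array, 1 array at 8 nM and no array at 80 nM. Levels were -5.92, -5.67 and -5.47 on the untreated arrays, -5.34, -3.24 and -5.42 at 8 nM, and -7.35, -8.12 and -7.69 at 80 nM. Replicate 2 at 8 nM had the highest signal and yet was not well above background. The gene stayed out of the test, and no fold is given.

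**Figure D3:**
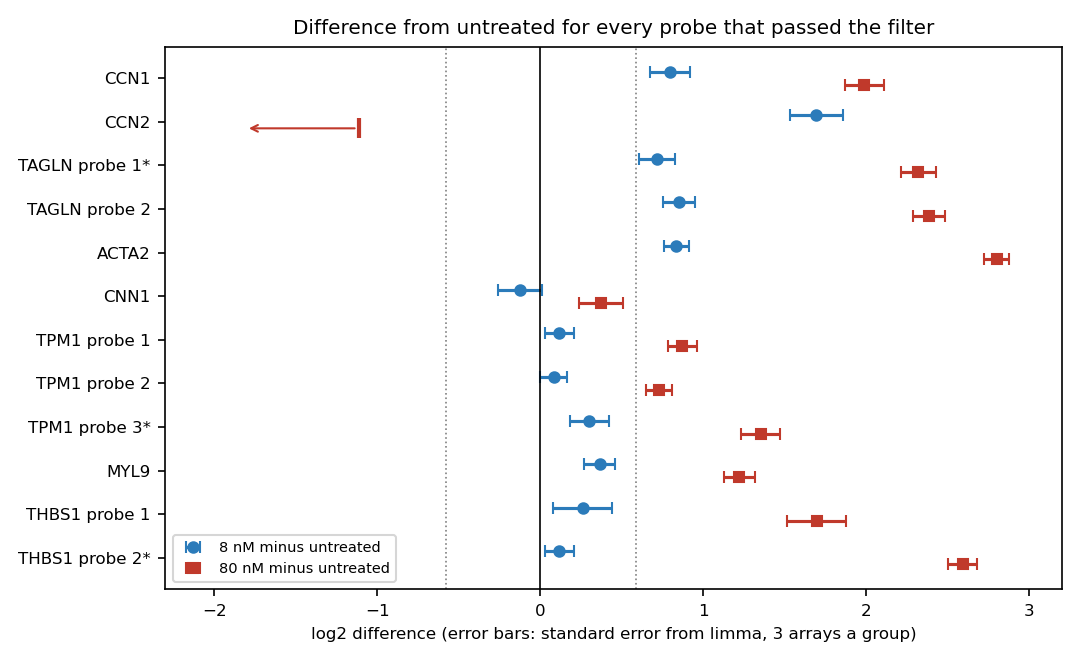
Difference from untreated (log2, horizontal axis) for the 12 probes of 8 genes that passed the filter, with the standard error from limma as bars, circles for 8 nM and squares for 80 nM. An asterisk marks the probe that stood for its gene, dotted lines the fold limits, and the arrow the bound for CCN2 at 80 nM, the only difference at that dose to the left of 0.

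When 80 nM was compared with 8 nM, ACTA2, TPM1, MYL9 and THBS1 were called up and CCN2 down, and CNN1 was not called. Over all genes 19.6% were called up and 14% down in this comparison. THBS1 differed most among those that were higher, by 2.47 (limma BH-adjusted p = 2.5e-07). ACTA2 was called up at each step of dose, THBS1, TPM1 and MYL9 at the second and not at the first, and CCN2 was called up at the first and down at the second. The median of the 8 genes, CCN1 and TAGLN included as a description, was 1.12, against 0.12 over all genes tested.

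Of 37 other genes usually assigned to SRF, none of them among the 9 members, 34 were tested. At 80 nM 15 were up-regulated (44.1%, against 18.9% of all genes) and 2 down-regulated (5.88%, against 16.1%), with a median difference of 0.436. With spike-in scaling, 10 were up-regulated and 2 down-regulated, and over all genes 10.2% were up and 26.2% down under that scaling. The largest rises measured on all arrays of both groups were in TGFB1I1, a focal adhesion LIM protein also called HIC-5, by 2.31 (limma BH-adjusted p = 6.8e-08), in ACTG2, the enteric smooth muscle actin, by 1.78 (0.0002), and in ACTA1, skeletal actin, by 1.52 (0.021). As for ACTA2, signal from other actins cannot be separated from that of ACTG2 and ACTA1. PDLIM7, a LIM protein of actin bundles, fell by 1.16 (adjusted p = 3e-05). MYH11, the smooth muscle myosin heavy chain, was not well above background at 80 nM and was at least 3.88-fold lower there, and it was picked after its values were seen. Its limma BH-adjusted p of 1.3e-05 belongs to the fitted difference and not to this bound. MYH11 passed the filter on dim probes only through the untreated and 8 nM arrays, so its call and p at 80 nM rest partly on that filter.

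At 8 nM 4 of these 34 SRF targets were up-regulated (11.8%, against 4.23% of all genes) and none down-regulated (against 2.84% of all genes), with a median of -0.029. At an unadjusted limma p under 0.05, without the fold limit, 9 were higher and 8 lower. Without untreated replicate 1, or without replicate 2 at 8 nM, 2 were up-regulated. CALD1, caldesmon, was called at both doses, by 0.63 (limma BH-adjusted p = 0.0009) and 1.45 (8.1e-07), and so was ACTA1, by 1.13 at 8 nM, where its groups overlapped and the adjusted p was 0.14. The other 2 called at 8 nM, TRIP6 and LMOD1, fall outside the rule for named genes and were picked after their values were seen. TRIP6, a LIM protein of the zyxin family, was higher by 0.60 (adjusted p = 0.0025), and LMOD1, a nucleator of actin in smooth muscle, by 1.61 (0.024) from a level that was above background on 1 untreated array. LMOD1 passed the filter on dim probes only through the 8 nM arrays, where it was high, so its call and its p rest partly on that filter. Beta-actin, ACTB, also picked after its values were seen, did not reach the fold limit at either dose, at -0.03 and 0.48.

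Other YAP targets went both ways. Of a list of 19 without the 9 genes, 15 were tested, and the median was 0.15 at 8 nM and 0.00855 at 80 nM. At 80 nM 2 were called up (13.3%, against 18.9% of all genes) and 4 down (26.7%, against 16.1%). PTPN14, a phosphatase that binds YAP, fell by 1.36 (limma BH-adjusted p = 4.5e-05), NUAK2, a kinase that promotes actomyosin tension, by 1.30 (1.8e-06) and FJX1, a Golgi kinase, by 1.06 (5.8e-06). GADD45A, a stress-response gene that p53 also drives, was called up at both doses, by 1.16 (adjusted p = 0.00023) and 1.14 (1.9e-05). The other gene called up at 80 nM, DOCK5, had overlapping groups and an adjusted p of 0.064, and 1 gene alone was called up without untreated replicate 2, 8 nM replicate 3 or any single 80 nM array. DOCK5 passed the filter on dim probes only through the 80 nM arrays, so its call there rests partly on that filter. It was chosen for mention after its values were seen.

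At 8 nM 3 YAP targets were called up (20%, against 4.23% of all genes) and 2 down (13.3%, against 2.84%). NUAK2 rose by 1.33 (limma BH-adjusted p = 4e-05), so that, as with CCN2, it was above untreated at 8 nM and below it at 80 nM. The 2 called down, F3 and DOCK5, were not well above background on any 8 nM array, nor was F3 on any untreated array, with limma BH-adjusted p-values of 0.14 and 0.099, and both were picked for mention after the fact. Both passed the filter on dim probes only through the 80 nM arrays. Without untreated replicate 3, or without any single 8 nM array, 1 was called down. AMOTL2, also picked afterwards, is an angiomotin that restrains YAP and is itself a YAP target, and it was higher by 0.60 (adjusted p = 0.0097) at 8 nM.

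**Figure D4:**
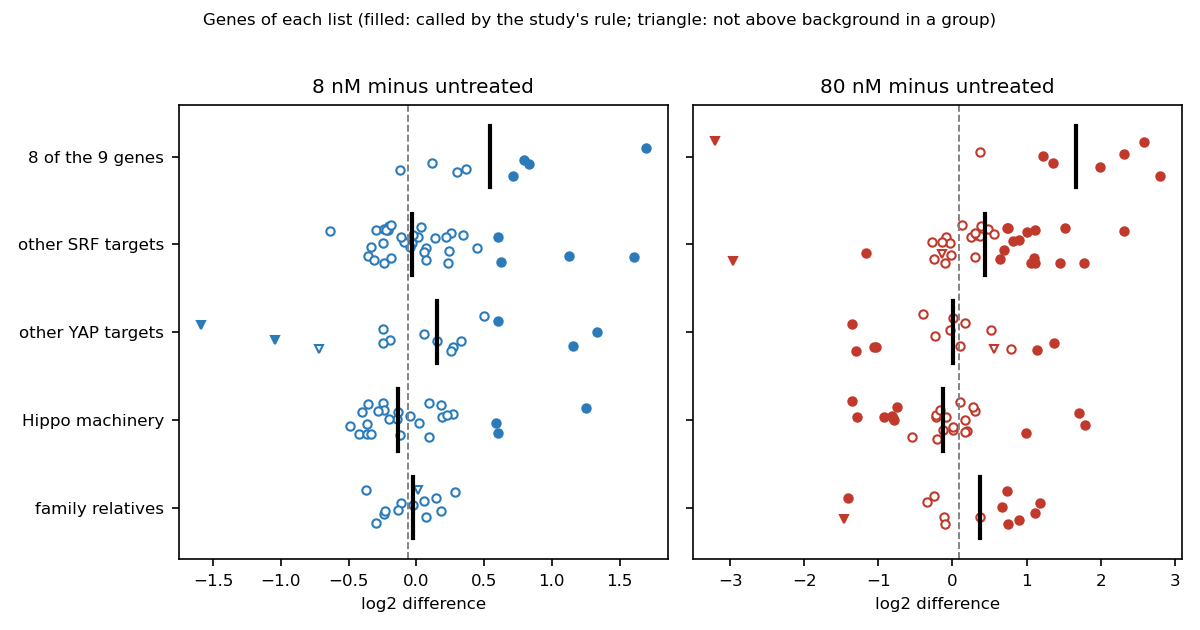
Log2 difference from untreated of every tested gene in 5 lists, at 8 nM and at 80 nM, with filled points for genes past the rule on fold and p (for CCN1 and TAGLN as a description), and triangles for genes at background on every array of at least 1 group compared. Black bars are list medians, from 0.541 at 8 nM to 1.67 at 80 nM for the 8 of the 9 genes that were tested, CCN1 and TAGLN included as a description. The dashed line is the median of all genes tested.

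In the Hippo pathway 25 of 27 listed genes were tested, of which 3 were called up (12%, against 18.9% of all genes) and 7 down (28%, against 16.1%) at 80 nM. At 8 nM 3 were called up (12%, against 4.23%) and none down (against 2.84% of all genes), while 4 were lower at an unadjusted limma p under 0.05 without the fold limit. AMOTL2, LATS2 and PTPN14 are also on the list of YAP targets. YAP1, WWTR1 and TEAD1, which the rule for named genes did not pick, were not called, at -0.09, 0.20 and -0.12 at 80 nM. FRMD6, a FERM protein that activates the pathway, rose by 1.79 (limma BH-adjusted p = 3e-06), TAOK3, a kinase upstream of MST1 and MST2, by 1.71 (7.9e-05), and SAV1, a scaffold of those kinases, by 0.99 (3.8e-05). Besides PTPN14, AMOTL1, an angiomotin, fell by 1.28 (0.012) and WWC1, or KIBRA, by 0.93 (0.0001).

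The other genes called down at 80 nM, VGLL4, NF2, TAOK1 and AMOT, were between -0.74 and -0.81. AMOT, which binds YAP at junctions and actin filaments, was called up at 8 nM, at 1.26 (limma BH-adjusted p = 0.0063), and down at 80 nM, at -0.81 (0.009). TEAD3 and AMOTL2 were the other genes called up at 8 nM, and 1 of the 3 was called without untreated replicate 1 or without 8 nM replicate 2. VGLL4, NF2, TAOK1, AMOT and TEAD3 fall outside the rule for named genes.

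Of 19 paralogs of the 9 genes 13 were tested, and none was called at 8 nM, against 4.23% up and 2.84% down of all genes. At that dose 2 were higher and 3 lower at an unadjusted limma p under 0.05 without the fold limit. At 80 nM 6 were up-regulated (46.2%, against 18.9% of all genes) and 2 down-regulated (15.4%, against 16.1%), with a median of 0.377. Among them ANKRD2, called up, passed the filter on dim probes only through the 80 nM arrays, and THBS4, called down, only through the untreated arrays. Both fall outside the rule for named genes. THBS3, a thrombospondin, rose by 1.19 (limma BH-adjusted p = 1.1e-05) and CNN3, the calponin of nonmuscle cells, by 1.11 (1.4e-05), while COMP, also of the thrombospondin family, fell by 1.40 (1.5e-05). TPM2 was higher by 0.75 (0.00019). CNN2, CNN3, TPM2, TPM3 and TPM4 are also on the list of SRF targets, so CNN3 and TPM2 were counted in both. CCN3, CCN4, CCN5 and CCN6 did not pass the filter on dim probes, so CCN1 and CCN2 were the only members of their family that were tested.

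GAPDH, the reference gene of the study's PCR, differed by 0.02 at 8 nM and -0.03 at 80 nM. The genes most like TAGLN over the 9 arrays, by Pearson's r across arrays that fall into 3 groups, were PIP4K2C (0.9968), RPL23AP32 and ABCC6P1 (both 0.9962), MAP1LC3A (0.9957) and NHLRC3 (0.9953). Those most like CCN1 were GSTA4 (0.9976), SMG8 and FAT1 (both 0.996), OXCT1 (0.9958) and ZNF425 (0.9954). None of these 10 genes is a member or on the lists above, and r here mostly follows the group means, which the arrays share.

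The keratins KRT7, KRT8, KRT18 and KRT19 with EPCAM were well above background on all 9 arrays, as were N-cadherin and vimentin, while CDH1, WT1 and MUC16 were on none. PAX8 and L1CAM did not pass the filter on dim probes either. ESR1 was well above background on all 9 arrays and was called down at 8 nM, at -0.58 (limma BH-adjusted p = 0.01). Of the smooth muscle markers other than the members, MYOCD, SYNPO2 and PLN were well above background on no array. Of 8 such markers 4, 5 and 3 were detected on all arrays of the untreated, 8 nM and 80 nM groups. Their summed linear level, relative to the 75th percentile, was 1.89 to 2.38, 2.32 to 2.64 and 4.22 to 4.58. At 80 nM ACTG2, whose signal cannot be separated from that of other actins, was called up, by 1.78. SMTN was called up as well, by 0.76 (limma BH-adjusted p = 0.00049). MYH11 was called down there, DES was not called, at -0.02, and LMOD1 was well above background on no 80 nM array. This sum thus did not stand for all of these markers. For 9 fibroblast markers the sums were 20.7 to 22.1, 22.8 to 23.8 and 29.6 to 32.2, with 7, 7 and 5 detected and FAP on none. Of the 7 fibroblast markers tested, COL3A1 and POSTN were called up at 80 nM and COL1A2, DCN and PDGFRA down, so the sum did not stand for all of them. Both sums were higher at 80 nM than in the other groups, as were most members, and their part in the results was not tested. The 75th percentile of processed intensity lay between 825.9 and 1166 over the 9 arrays, no gene spot was saturated, and correlations within a group lay between 0.989 and 0.9956 across genes.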

How the data were processed

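Total RNA of 9 cultures of A2780 cells was labeled with Cy3 and hybridized to 1-colour Agilent arrays, 3 for each group, and groups and replicate numbers were taken from the labels of the samples. The labels and the paper name different labeling kits. The authors extracted the intensity of 62976 spots per array with Feature Extraction 10.7.3.1 (per the submitters' processing notes). In the deposited processed intensity the background of each spot has been subtracted, while arrays have not been scaled to each other. A table of log2 values deposited by the authors served only as an alternative. The paper names a lowess normalization in Feature Extraction, although the arrays are 1-colour, and no lowess step was applied here.

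Control spots (4259) and outlier spots were left out, spots of a probe were averaged, and the log2 of the 75th percentile of the array was subtracted. Of 42405 gene probes 25715 were named through RefSeq. A probe counted as well above background where more than 0.5 of its spots did, and those that passed on each of the 3 arrays of any group were kept (26457 probes). The probe with the highest mean stood for a gene. Groups were compared with limma 3.58.1 in R 4.3.3 on all 9 arrays, with Benjamini-Hochberg adjustment over 21832 genes. The procedure was tested on simulated data.

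The members and the lists were chosen with earlier results of these data known. Genes were named by rule: all members, the genes of a list called at both doses in the same direction, the 3 largest rises and falls at 80 nM of each list among genes measured on all arrays of both groups, and the 5 genes most correlated with TAGLN and with CCN1. Exceptions are marked, marker lists are given in part, and 1 further list is not reported here. Alternatives were a normexp correction with offset 50, quantile, median and spike-in scaling (10 spike-in probes), the authors' log2 values, other filters on dim probes, the mean of a gene's probes, only the compared groups, a replicate block, adjusted p-values in the call rule and the omission of each array. The call rule is that of the paper's methods. The number of arrays limits the precision.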

Additional observations from a re-analysis of the deposited data

Results flagged for a closer look

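The rule on fold and p called 3 genes up at 8 nM and down at 80 nM among the 9 genes and the lists of SRF targets, YAP targets and Hippo regulators. They were picked for these opposite calls, so the gap between the doses follows from the pick. Its limma BH-adjusted p-values are a description and no further support. The pattern held for CCN2 among 8 tested members, 1 of 15 YAP targets, 1 of 25 Hippo genes and 0 of 34 SRF targets. It also held for 1 of 8 ovarian line markers and 1 of 7 fibroblast markers. Over all tested genes 4.23% were called up at 8 nM and 16.1% down at 80 nM. The share of all genes with both calls was not counted. For CCN2 the fitted difference between 80 nM and 8 nM was -4.89 on the log2 scale (adjusted p = 1.6e-07), from 1.69 at 8 nM and an 80 nM signal that was not well above background, so that on the scale of the processed intensity only the bound of at least 6.99-fold applies, while normexp gave -1.43 and the authors' log2 values -2.20. For NUAK2 it was -2.64 (adjusted p = 4.2e-08), from 1.33 at 8 nM to -1.30 at 80 nM. For AMOT it was -2.07 (adjusted p = 6.8e-05), from 1.26 to -0.81. All 3 differences set slide 2 against slide 1, and their cause was not tested.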

How the results depend on the processing

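No difference of a member changed sign under the 20 alternatives, though CCN2 gave no value under the filter on all 9 arrays, and the counts that moved follow. The members' counts here include CCN1 and TAGLN, as a description by the same rule. For the members, 2 were called down at 80 nM against untreated and against 8 nM with no filter on dim probes, and 0 when each probe had to be well above background on all 9 arrays, since CCN2 then was not tested. With each array left out, the members' counts up were 4, 6 and 6 to 7, and down 0, 1 and 1, in the order 8 nM and 80 nM against untreated, then 80 nM against 8 nM. With each array left out, SRF targets called at 8 nM were 2 to 4 up and 0 to 1 down, YAP targets 1 to 3 down at 8 nM and 1 to 2 up at 80 nM, and Hippo machinery 1 to 3 up at 8 nM.

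Under normexp, YAP targets were 0 down at 8 nM and 1 up at 80 nM, and Hippo machinery was 1 up at 8 nM. Quantile normalization gave 1 SRF target down at 8 nM, 1 YAP target down at 8 nM and 1 up at 80 nM. Median scaling gave 1 SRF target down, and 1 gene of the Hippo machinery up, at 8 nM. The authors' log2 values gave 0 YAP targets down at 8 nM and 1 up at 80 nM, as did adjusted p-values, and so did the filter on all 9 arrays, which also gave 1 SRF target down at 80 nM. Spike-in scaling moved the median of all genes at 80 nM from 0.0818 to -0.202 against untreated and from 0.12 to -0.241 against 8 nM. It put 72.1% of the calls at 80 nM down in place of 46%, and 21.2% at 8 nM in place of 40.2%; adjusted p-values put 27.3% of the 8 nM calls down. Without replicate 1 at 8 nM 53.4% of them were down.

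Replicate numbers did not pair the arrays across all groups. The correlations of deviations between arrays of the same number lay between -0.12 and 0.158, and 4 of 9 arrays correlated best with their own number. Between untreated and 8 nM arrays, both on slide 1, there was a weak pairing. Those of the same number correlated at 0.111, 0.0996 and 0.158, and those of different numbers at -0.122 to -0.00432. The main fit did not use this pairing. Adding the replicate number as a block to the fit gave 927 genes up and 612 down at 8 nM, against 923 and 621 without it, and 4122 and 3505 against 4131 and 3521 at 80 nM. It left the members called up at 4, 6 and 6 and down at 0, 1 and 1. Spike-in scaling gave CCN1 and TAGLN 1.70 and 2.04 at 80 nM. Signals near background limit CCN2 and ANKRD1.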

Other observations

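Markers used to check the cell line held a few large differences of their own. COL1A2, a chain of type I collagen, was measured on all untreated and 8 nM arrays and was at least 46.7-fold lower at 80 nM. Its fitted difference, and not this bound, had an adjusted p of 5.8e-07 (limma with Benjamini-Hochberg adjustment). COL3A1, the chain of type III collagen, rose by 2.09 on the log2 scale (adjusted p = 1.5e-05). EPCAM, an epithelial adhesion protein, was higher by 0.90 at 8 nM (adjusted p = 0.035) and lower at 80 nM, at -0.90 (0.0091). PDGFRA, a receptor for platelet-derived growth factor, fell by 6.46 at 80 nM (1.6e-08), where its probe was well above background on 2 of the 3 arrays. CDH2, or N-cadherin, fell by 2.31 at 80 nM (7.7e-06). COL1A2 and PDGFRA were picked after their values were seen, and the 80 nM values carry the same confounding with slide 2. Both passed the filter on dim probes only through the untreated and 8 nM arrays, so their calls and p-values at 80 nM rest partly on that filter.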
